A study of Caenorhabditis elegans with 6 samples.

Results

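The comparison described here is that of wild-type Caenorhabditis elegans fed Microbacterium sp. JUb74 with wild-type worms fed E. coli OP50. It takes in 2 of the 6 samples of the study, both labelled as whole worms at the L4 larval stage. Each sample came with 2 gene count tables, so that 4 wild-type libraries entered the contrast. Synchronised L1 larvae had been placed on plates with one or the other bacterium and were collected at L4, per the labels. The other samples used here for reference were worms carrying scav-4(unk59) on either food and worms carrying scav-4(unk49) on OP50. Nothing in the labels ties the 2 tables of a sample to separate cultures, so every p-value below measures the spread between libraries, which may be technical. What the alleles change in scav-4, a gene of the family of the mammalian receptor CD36, is not given in the labels.

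OP50 is the usual laboratory food of the worm and is a Gram-negative bacterium. Microbacterium is a genus of Gram-positive actinobacteria, whose membrane lipids are rich in branched-chain fatty acids, and the series title names a diet rich in such fatty acids. The worm also makes branched-chain fatty acids itself, from branched-chain amino acids, with the elongases elo-5 and elo-6 and the acyl-CoA synthetase acs-1. At L4 the germ line makes sperm before it turns to oocytes, the epidermis lays down the adult cuticle, and yolk proteins begin to be made in the intestine, so that genes of these programmes mark how far a population has advanced.

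Between 21937088 and 22348165 read pairs were assigned to genes in each of the 4 wild-type libraries, and 15950 of the 46778 listed genes passed the filter on low counts. Levels are given as CPM, counts scaled to a common library size. Adjusted p-values are those of edgeR's two-sided quasi-likelihood test with Benjamini-Hochberg adjustment over all 15950 genes, and a gene is said to rise or fall, or to be called, at an adjusted p under 0.05. Among the genes tested, 1426 (8.94%) were called. Of these, 422 (2.65%) were higher and 1004 (6.29%) lower on JUb74, and the tested genes had a median log2 fold change of -0.003. In unk59 the same diet contrast, made on other libraries, called 59.8% of the genes.

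The number of calls depended on single libraries. It was 19 and 13 without library 1 or library 2 of wild type on OP50, and 472 and 27 without library 1 or library 2 of wild type on JUb74, where the remaining library was assumed to vary like the other groups. Called whichever library was left out were 8 genes, which are W03F9.4, fat-5, acl-12, ilys-3, acs-1, cth-1, htp-1 and Y51H7C.1. The other genes described below as rising or falling lost their call without at least 1 library. W03F9.4 and Y51H7C.1 were named after their values were seen.

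The rising and the falling genes differed in level. The median rising gene had 9.70 CPM on OP50 and 25.24 CPM on JUb74. The median falling gene had 2.26 CPM on OP50 and 0.0933 CPM on JUb74. In 516 of the 1004 falling genes both JUb74 libraries held 3 reads or fewer, taken here as the floor, so that their fitted fold changes are not interpretable as sizes. The same held on OP50 for 17 of the 422 rising genes.

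**Figure D1:**
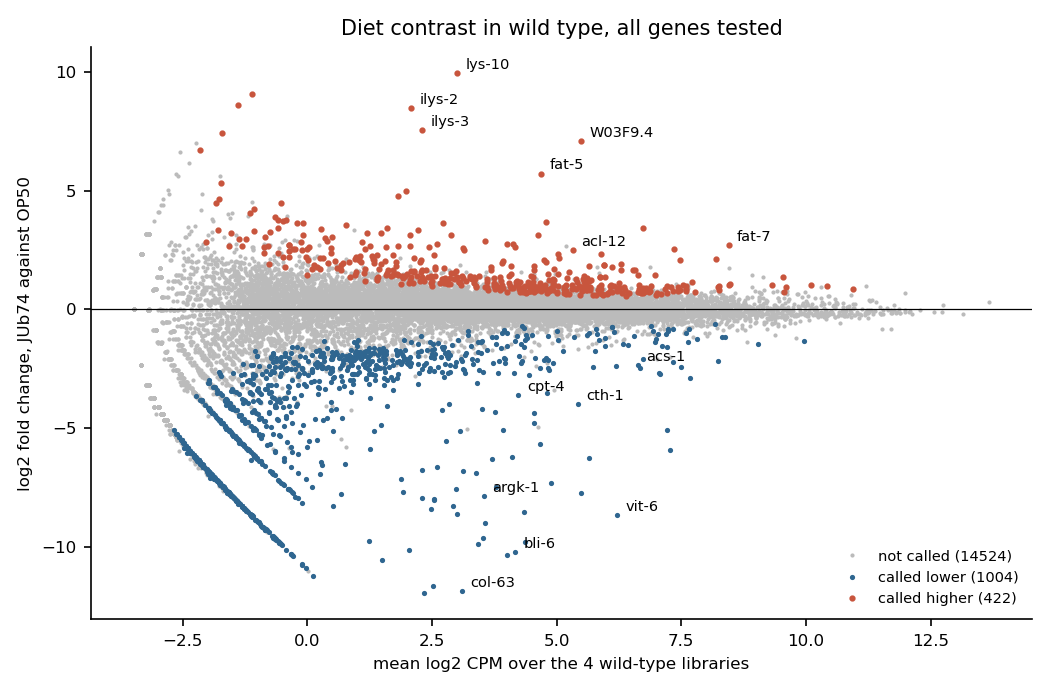
Log2 fold change of JUb74 against OP50 in wild type (vertical axis) against the mean log2 CPM over the 4 wild-type libraries (horizontal axis) for all 15950 genes tested, with 422 genes called higher and 1004 called lower in colour. The rising genes lys-10, ilys-2, ilys-3, W03F9.4 and fat-5 stand apart at the top, and the falling genes reach lower levels, where diagonal streaks at the left are genes with few or no reads on JUb74.

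Genes of sperm, of other parts of the germ line, of yolk and of the cuticle were among the falling genes. All 29 tested genes of the major sperm proteins, the cytoskeletal proteins of nematode sperm, were called lower. Their summed level was 141 and 120 CPM in the OP50 libraries and 1.06 and 1.36 CPM in the JUb74 libraries. In 28 of them both JUb74 libraries were at the floor, and with these genes set to their bound the median log2 fold change of the list was -4.90. The genes are near-identical copies, and reads that fit several of them equally are not in these counts. Without the filter on low counts 6 of them were called lower, and with at least 10 reads in every library 0, since the list has almost no reads on JUb74. Leaving out 1 library left between 0 and 3. Among 30 other spermatogenesis genes 11 fell, with 0 called at that filter of 10 reads and 6 with the replicate block. spe-44, a transcription factor of spermatogenesis, was at 4.81 and 6.03 CPM on OP50 and at 0.240 and 0.212 CPM on JUb74. Its log2 fold change was -4.55 (SE 0.642, adjusted p 0.0171).

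Some genes of meiosis and of oocytes were called lower as well. Of 25 meiotic chromosome genes 13 fell, with a list median log2 fold change of -1.67, and 7 to 17 were called lower under the alternatives that keep all libraries. htp-1, a component of the meiotic chromosome axis, had 8.71 and 9.0 CPM on OP50 and 1.01 and 1.66 CPM on JUb74. Its groups did not overlap, and its log2 fold change of -2.72 (SE 0.279, adjusted p 0.00492) stayed called under all 12 alternatives other than the timing covariate described below. htp-2, a near-identical copy of htp-1 with which reads may be shared, and him-3, of the same axis, fell by 2.73 and 2.83 on the log2 scale. Without library 1 of the JUb74 group these values were -2.15 and -2.25, and without library 2 they were -3.99 and -4.08.

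Of 24 germline RNA-binding and P granule genes 12 fell (median log2 fold change -1.90). gld-1, a translational repressor that governs entry into meiosis, went from 57.8 and 59.0 CPM to 5.82 and 11.2 CPM, and its log2 fold change was -2.77 (SE 0.53, adjusted p 0.0237), or -3.48 without library 2 of the JUb74 group. Of 25 oocyte maturation and eggshell genes 9 fell and 16 were not called (median -2.53). The summed level of that list, 282 and 298 CPM on OP50 and 294 and 378 CPM on JUb74, was not lower. Among them, mex-5, which patterns the early embryo, went from 13.9 and 14.3 CPM to 0.913 and 2.21 CPM, a log2 fold change of -3.16 that was -4.09 without library 2 of the JUb74 group. In whole worms, fewer germ cells and less RNA per germ cell cannot be told apart. In both lists 0 genes were called by edgeR once any 1 of the 4 libraries was left out, against 15 and 19 called lower by DESeq2 on all libraries. Without the filter on low counts 5 and 1 were called lower, and with the replicate block 4 and 1.

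Vitellogenins, the yolk proteins, had a summed level of 4423 and 2058 CPM on OP50 and of 23 and 5.35 CPM on JUb74. Of the 6 genes 5 were called lower, but 0 without the filter on low counts, 0 with a strand column, 0 with the replicate block and 1 with at least 10 reads in every library, against 6 with DESeq2. Once any 1 wild-type library was left out, 0 were called. vit-6 alone went from 2280 and 1005 CPM to 6.25 and 2.04 CPM, and its log2 fold change of -8.64 (SE 1.83, adjusted p 0.0299) ranged from -9.66 without library 1 of the JUb74 group to -7.93 without library 1 of the OP50 group. vit-1 was the one not called, at 203 and 135 CPM against 9.80 and 1.32 CPM (adjusted p 0.064). The wild-type libraries of a diet differed among themselves, but in wild type the diets did not overlap for either gene. In unk59 the summed level of the 6 genes was 73.2 and 5410 CPM on OP50 and 14960 and 9721 CPM on JUb74. Yolk thus also differed widely between the libraries of unk59 on OP50. Over both genotypes and unk49, 0 of the 6 genes were lower in every JUb74 library than in every OP50 library.

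Cuticle collagens fell in part. Of the numbered cuticle collagens tested 33 fell and 86 were not called, 47 had positive values, and the summed level overlapped between the foods, at 35120 and 30270 CPM on OP50 and 39350 and 20110 CPM on JUb74. The number called lower was 10 without the filter on low counts, 14 with at least 10 reads in every library, 18 with a strand column, 15 with the replicate block and 0 to 12 without 1 library. Of 7 adult cuticle collagens, some of which are in both lists, 4 fell, with 2 called without the filter and 1 with at least 10 reads. bli-1, which encodes a strut collagen of the adult cuticle, had 417 and 472 CPM on OP50 and 2.16 and 0.297 CPM on JUb74. The fitted log2 fold change of -8.52 was -10.53 without the JUb74 library 1 and -7.83 without the JUb74 library 2. Its partner bli-2 had 373 and 355 CPM against 2.36 and 2.29 CPM, a change of -7.29 on the log2 scale (SE 1.07, adjusted p 0.0179). col-63 had 558 and 333 CPM on OP50 and 0.240 and 0 CPM on JUb74. col-138, bli-6 and rol-1 lay between 418 and 747 CPM in the OP50 libraries and between 0.170 and 0.913 CPM in the JUb74 libraries. The collagen col-19, an adult marker, went from 87.6 and 40.1 CPM to 1.06 and 0.255 CPM (log2 fold change -6.62, adjusted p 0.0399, or -7.95 without the JUb74 library 1 and -5.95 without the OP50 library 1). Larval collagens and adult collagens are not separated in the first of these lists.

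**Figure D2:**
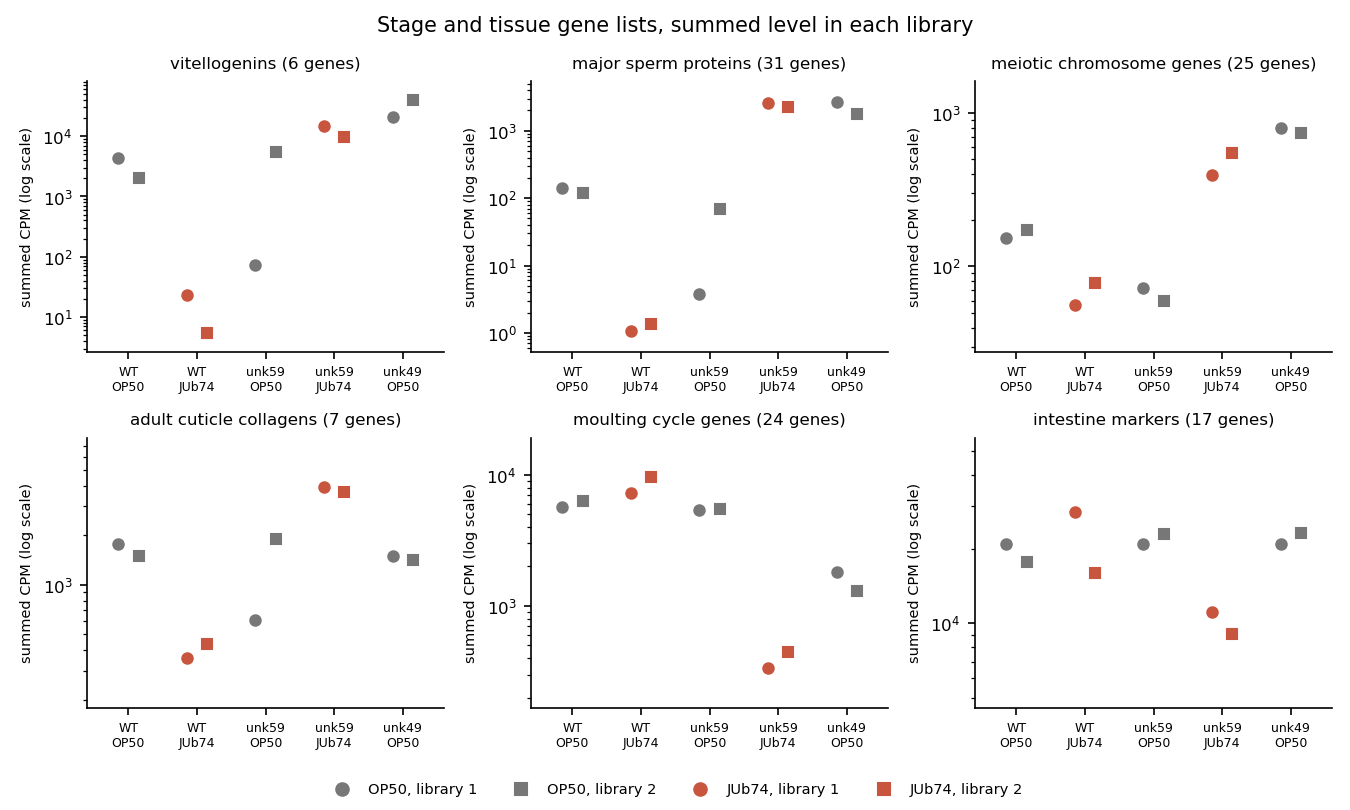
Summed CPM (log axis) of 6 gene lists in each of the 10 libraries, grouped by genotype and food, with a circle for library 1 and a square for library 2 of each group. Wild type on JUb74 is below wild type on OP50 in the yolk, sperm, meiotic and adult collagen lists. In the same 4 lists unk59 on JUb74 is above unk59 on OP50. By gene, 0 vitellogenins were called in unk59, and of the adult collagens 1 was called higher and 3 lower. Library 1 of unk59 on OP50 is nearer to wild type on JUb74 than to wild type on OP50 in those 4 lists on the log axis.

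Of 13 heterochronic genes, which set the order of larval stages, 4 rose and 9 were not called, with a median log2 fold change of 0.58. lin-14, which specifies early larval fates, went from 52 and 51 CPM to 90.4 and 84.8 CPM, a change of 0.77 on the log2 scale (SE 0.155, adjusted p 0.025). hbl-1 and daf-12 rose by 0.99 and 0.91 on the log2 scale, and lin-46 by 1.19. lin-28 showed 0.05 (adjusted p 0.931) and lin-29 0.35 (adjusted p 0.236).

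In the moulting cycle list 22 of 24 genes had positive values, but nhr-25 alone was called, at 30.7 and 28.2 CPM on OP50 and 81.3 and 62.3 CPM on JUb74 (log2 fold change 1.29, SE 0.278, adjusted p 0.028). nhr-25 is a nuclear receptor of the epidermis and of moulting. All 16 neuron markers had positive values and 5 of them rose, among them the glutamate decarboxylase unc-25 (1.17) and the neuropeptide convertase egl-3 (0.73). With the replicate block 0 of these markers were called, and with at least 10 reads in every library 1. In unk59 0 of them were called higher on JUb74 and 8 lower. Of 12 hypodermis and seam markers 2 rose. tba-8, an alpha-tubulin, went from 1.93 and 1.89 CPM to 14.4 and 33.3 CPM, a change of 3.64 on the log2 scale (SE 0.675, adjusted p 0.0234) that was 2.76 without library 2 of the JUb74 group. All 4 heterochronic genes that rose here fell on JUb74 in unk59.

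Among 28 muscle sarcomere genes and 15 intestine markers 0 were called in either direction by edgeR with the settings reported here. At an unadjusted p under 0.05 these lists held 3 and 2 genes, and DESeq2 called 3 lower and 1 higher. Some other edgeR settings called a few as well. With the wild-type libraries alone 2 sarcomere genes were lower. Without the filter on low counts 1 sarcomere gene was lower and 1 intestine marker higher. The summed level of the intestine markers was 21040 and 17710 CPM on OP50 and 28330 and 16020 CPM on JUb74. Of 81 cytosolic ribosomal protein genes rpl-11.1 alone was called, with a log2 fold change of -2.08, or -2.82 without library 2 of the JUb74 group. Of 37 genes of the respiratory chain 3 fell, asb-1, ucr-2.3 and cyc-2.2, and all 3 were higher on JUb74 in unk59.

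Some of the stage markers moved with the diet in wild type. Most germ line markers were called higher on JUb74 in unk59, opposite to their direction in wild type. Of 24 moulting cycle genes 1 was called higher in wild type and 23 lower in unk59. Of 13 heterochronic genes 4 were called higher in wild type and 10 lower in unk59. The mean log2 CPM of the 25 oocyte and eggshell genes, used as a timing score, was 2.57 and 2.62 in wild type on OP50 and 0.0888 and 0.605 in wild type on JUb74. In unk59 it was 0.488 and 0.951 on OP50 and 5.66 and 6.78 on JUb74, and in unk49 on OP50 it was 7.99 and 6.62, so that libraries with the same stage label differed widely. Both wild-type JUb74 libraries had a lower score than both wild-type OP50 libraries. With the score as a covariate edgeR called W03F9.4 alone, and the sizes of other genes moved to differing degrees. fat-5 was at 5.52 on the log2 scale (5.71 without the covariate), acl-12 at 2.28 (2.49), acs-1 at -2.81 (-2.35) and argk-1 at -9.06 (-7.85). lys-10 went from 9.95 to 7.81 and cpt-4 from -3.61 to -2.27. Among the called genes with tabulated values, 0 changed direction, while the median of the germline RNA-binding list went from -1.90 to -0.29 and that of the list behind the score from -2.53 to 0.095. The lost calls do not measure the part of stage in the diet effect, which was not tested. Of the 1004 genes that fell in wild type, 839 were called higher and 106 lower on JUb74 in unk59 (10.56% lower, against 26.34% of all genes tested). Of the 422 that rose, 176 were called higher (41.7%, against 33.5% of all genes tested) and 120 lower.

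The unk59 libraries on OP50 had timing scores below those of wild type on OP50. For 853 of the 1004 falling genes (85.0%), the log2 CPM of library 1 of unk59 on OP50 was closer to the mean of wild type on JUb74 than to that of wild type on OP50. The same was true of 116 of the 422 rising genes (27.5%). In library 2 of that group the shares were 36% and 14.9%. The genes were called from the same wild-type libraries, and no such share was computed over all genes tested. These shares thus have no background to be set against, and what lies behind them was not tested.

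**Figure D3:**
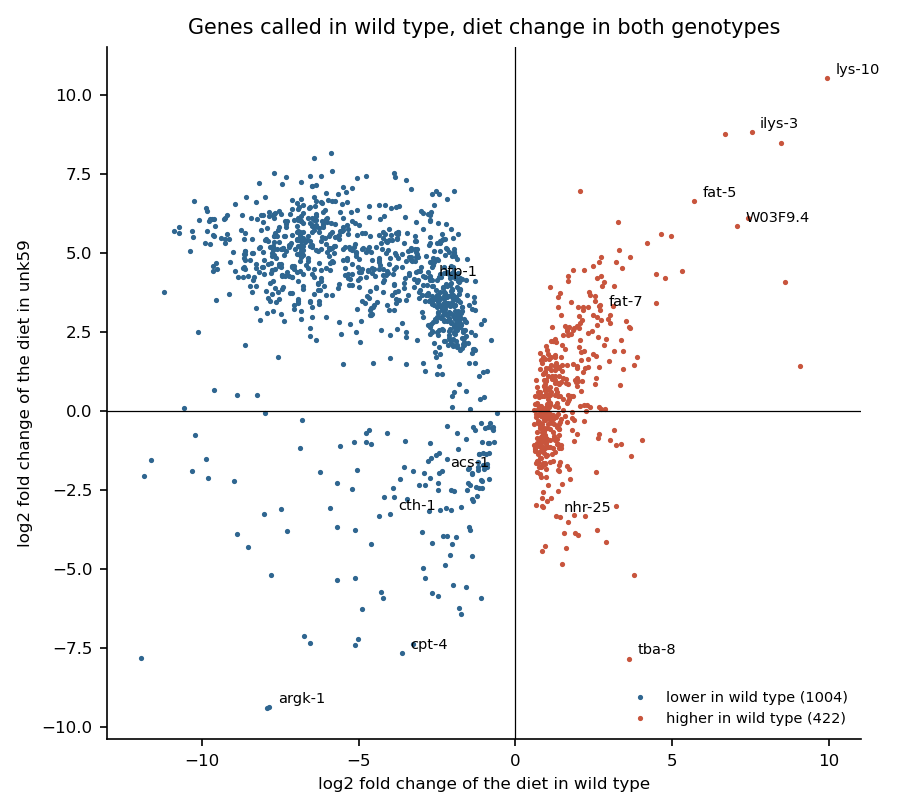
Log2 fold change of the diet in unk59 (vertical axis) against that in wild type (horizontal axis) for the 1426 genes called in wild type. Most of the 1004 falling genes lie in the upper left part, higher on JUb74 in unk59, while fat-5, lys-10, ilys-3 and W03F9.4 lie at the upper right and acs-1, cth-1, cpt-4 and argk-1 at the lower left.

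Fatty acid desaturases were among the genes that rose in both genotypes. Of the 7 genes tested 4 were called higher, with a median log2 fold change of 0.95. fat-5, a desaturase of palmitic acid on chromosome V from 17725004 to 17726818, had 4.08 and 2.97 CPM on OP50 and 194 and 176 CPM on JUb74. Over all 6 OP50 libraries it was between 2.1 and 12.81 CPM and over all 4 JUb74 libraries between 176 and 336 CPM. The gap between the foods was wider than the spread within either, and in wild type the log2 fold change was 5.71 (SE 0.344, adjusted p 0.000246), between 5.49 and 5.95 under the 12 alternatives.

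The desaturases of stearic acid, fat-6 and fat-7, were higher as well. fat-7 went from 192 and 91.4 CPM to 1039 and 812 CPM. Its log2 fold change of 2.71 was 3.33 without the OP50 library 1 and 2.26 without the OP50 library 2. fat-6 went from 575 and 541 CPM to 1104 and 1051 CPM, a smaller change of 0.95 on the log2 scale (SE 0.159, adjusted p 0.019). Per kilobase of exon, the mean level of fat-7 was 126 CPM on OP50 and 822 CPM on JUb74, against 478 and 924 CPM for fat-6 and 3.19 and 168 CPM for fat-5. The 3 enzymes were thus unequal on OP50 and closer to each other on JUb74.

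fat-2, which makes linoleic acid from oleic acid, rose from 430 and 469 CPM to 767 and 1075 CPM (log2 fold change 1.03, adjusted p 0.0255). The desaturases that act on polyunsaturated fatty acids, fat-1, fat-3 and fat-4, had log2 fold changes of -0.26, 0.28 and 0.01 and were not called. Of the known regulators of these genes, sbp-1 showed 0.08 (adjusted p 0.891), mdt-15 0.16 (0.646), nhr-49 0.47 (0.12) and nhr-80 0.30 (0.364). Of 20 lipid regulators 3 rose, nhr-25, cebp-1 and pqm-1.

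The branched-chain fatty acid pathway was represented by 8 genes, and only acs-1 among them was called. acs-1, which activates branched-chain fatty acids and lies on chromosome V from 6524989 to 6532089, had 237 and 212 CPM on OP50 and 41.1 and 47.0 CPM on JUb74. The groups did not overlap, and the log2 fold change was -2.35 (SE 0.22, adjusted p 0.00406), between -2.60 and -2.26 under the 12 alternatives, beside -1.89 in unk59. Over all 6 OP50 libraries acs-1 was between 183 and 290 CPM, and over all 4 JUb74 libraries between 41.1 and 55.1 CPM. The elongases elo-5 and elo-6 showed 0.12 (adjusted p 0.896) and -0.33 (adjusted p 0.619). The acetyl-CoA carboxylase pod-2 and the fatty acid synthase fasn-1 had 0.76 (adjusted p 0.0536) and 0.65 (adjusted p 0.16). Of 11 genes of branched-chain amino acid breakdown 0 were called by edgeR with the settings reported here, with 5 at an unadjusted p under 0.05. With the wild-type libraries alone edgeR called 1 of them higher, and DESeq2 called 1 higher and 3 lower. Their median log2 fold change was -0.32.

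Genes of glycerolipids and fat breakdown gave a few further calls. acl-12, an acyltransferase-like gene on chromosome X from 7439400 to 7442577, went from 18.1 and 15.9 CPM to 103 and 88.0 CPM. The fitted log2 fold change of 2.49 (SE 0.183, adjusted p 0.00101) stayed between 2.37 and 2.58 under the 12 alternatives and was called in each, beside 3.03 in unk59. Of 18 lipid droplet and triglyceride genes lpin-1 and abhd-5.2 rose, by 1.01 and 0.93 on the log2 scale. lpin-1 encodes lipin, a phosphatidate phosphatase, and abhd-5.2 a relative of the mammalian activator of the triglyceride lipase ATGL. The coat proteins of worm lipid droplets, plin-1 and dhs-3, showed 0.30 (adjusted p 0.571) and -0.64 (adjusted p 0.35), the lipase atgl-1 0.68 (adjusted p 0.0984) and the acyltransferase dgat-2 -0.08 (adjusted p 0.885).

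Of 15 genes of mitochondrial beta-oxidation hacd-1, a hydroxyacyl-CoA dehydrogenase gene, rose by 1.16 (SE 0.265, adjusted p 0.0319), from 118 and 169 CPM to 257.6 and 384 CPM. acdh-8, an acyl-CoA dehydrogenase gene of the same list, fell from 63 and 65 reads on OP50 to 0 in both JUb74 libraries (adjusted p 0.0214), at least 20.2-fold lower against the floor, and was called higher on JUb74 in unk59. Among 15 peroxisomal genes, 9 fatty acid binding proteins, 7 genes of the propionate shunt and 6 CD36-related scavenger receptors, 0 were called by edgeR with the settings reported here and 0 by DESeq2. Of these, 2 of the binding proteins and 1 of the receptors were at an unadjusted p under 0.05. With the wild-type libraries alone edgeR called 1 of the receptors higher. scav-4, the gene mutated in the other strains of the study, had 47.3 and 36.1 CPM on OP50 and 33.1 and 9.93 CPM on JUb74 and was not called (log2 fold change -0.96, adjusted p 0.211). Its 2 JUb74 libraries lay far apart, and the value was -2.08 without library 1 and -0.49 without library 2.

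Of 24 genes of sphingolipid synthesis and breakdown 3 fell. asah-2, a ceramidase gene, went from 13.9 and 13.9 CPM to 3.89 and 3.44 CPM (log2 fold change -1.92, SE 0.23, adjusted p 0.00828), and asah-1 from 21.1 and 24.1 CPM to 12.4 and 10.4 CPM. Both were called higher on JUb74 in unk59, as most germ line genes were. gba-4, a glucosylceramidase gene, went from 8.02 and 5.401 CPM to 2.02 and 0.382 CPM, a log2 fold change of -2.51 that was -4.12 without the JUb74 library 1 and -1.88 without the JUb74 library 2. Of 7 lysosomal lipases lipl-3 alone rose, from 0.367 and 1.03 CPM to 2.69 and 3.10 CPM, with a log2 fold change of 2.04 (adjusted p 0.0496) that was 2.95 without the OP50 library 2.

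A set of falling metabolic genes, cth-1, argk-1 and cpt-4, was called lower in both genotypes. cth-1, a cystathionine gamma-lyase of the transsulfuration pathway on chromosome V from 16100680 to 16102750, had 200 and 146 CPM on OP50 and 10.9 and 10.7 CPM on JUb74. The fitted log2 fold change was -4.0 (SE 0.425, adjusted p 0.00492), called in all 12 alternatives, and in unk59 it was -3.26. Its paralogue cth-2 was at 539 and 508 CPM against 598 and 380 CPM (log2 fold change -0.10, adjusted p 0.856).

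argk-1, an arginine kinase that lies 1143 bases beyond cth-1 on the same strand of chromosome V, had 182 and 155 CPM on OP50 and 0.865 and 0.594 CPM on JUb74. Its log2 fold change was -7.85 (SE 0.942, adjusted p 0.0105), against -9.37 in unk59. Across all 4 JUb74 libraries it was at or under 0.865 CPM, and across all 6 OP50 libraries at or above 53.9 CPM. No other protein-coding gene begins between the neighbours in the annotation.

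cpt-4, a carnitine palmitoyltransferase, had 63.5 and 67.2 CPM on OP50 and 5.62 and 5.05 CPM on JUb74 (log2 fold change -3.61, SE 0.369, adjusted p 0.00492). It lost its call without library 2 of the JUb74 group, although its value there was -3.69. The main members of the family, cpt-1 and cpt-2, showed 0.05 (adjusted p 0.922) and 0.16 (adjusted p 0.712). The further falling genes of the transsulfuration list, cbs-2, cysl-4 and mpst-4, were at 2.93 CPM or less in both OP50 libraries and at 3 reads or fewer in both JUb74 libraries. Against the floor cysl-4 was at least 4.25-fold lower, and all of them were called higher on JUb74 in unk59.

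**Figure D4:**
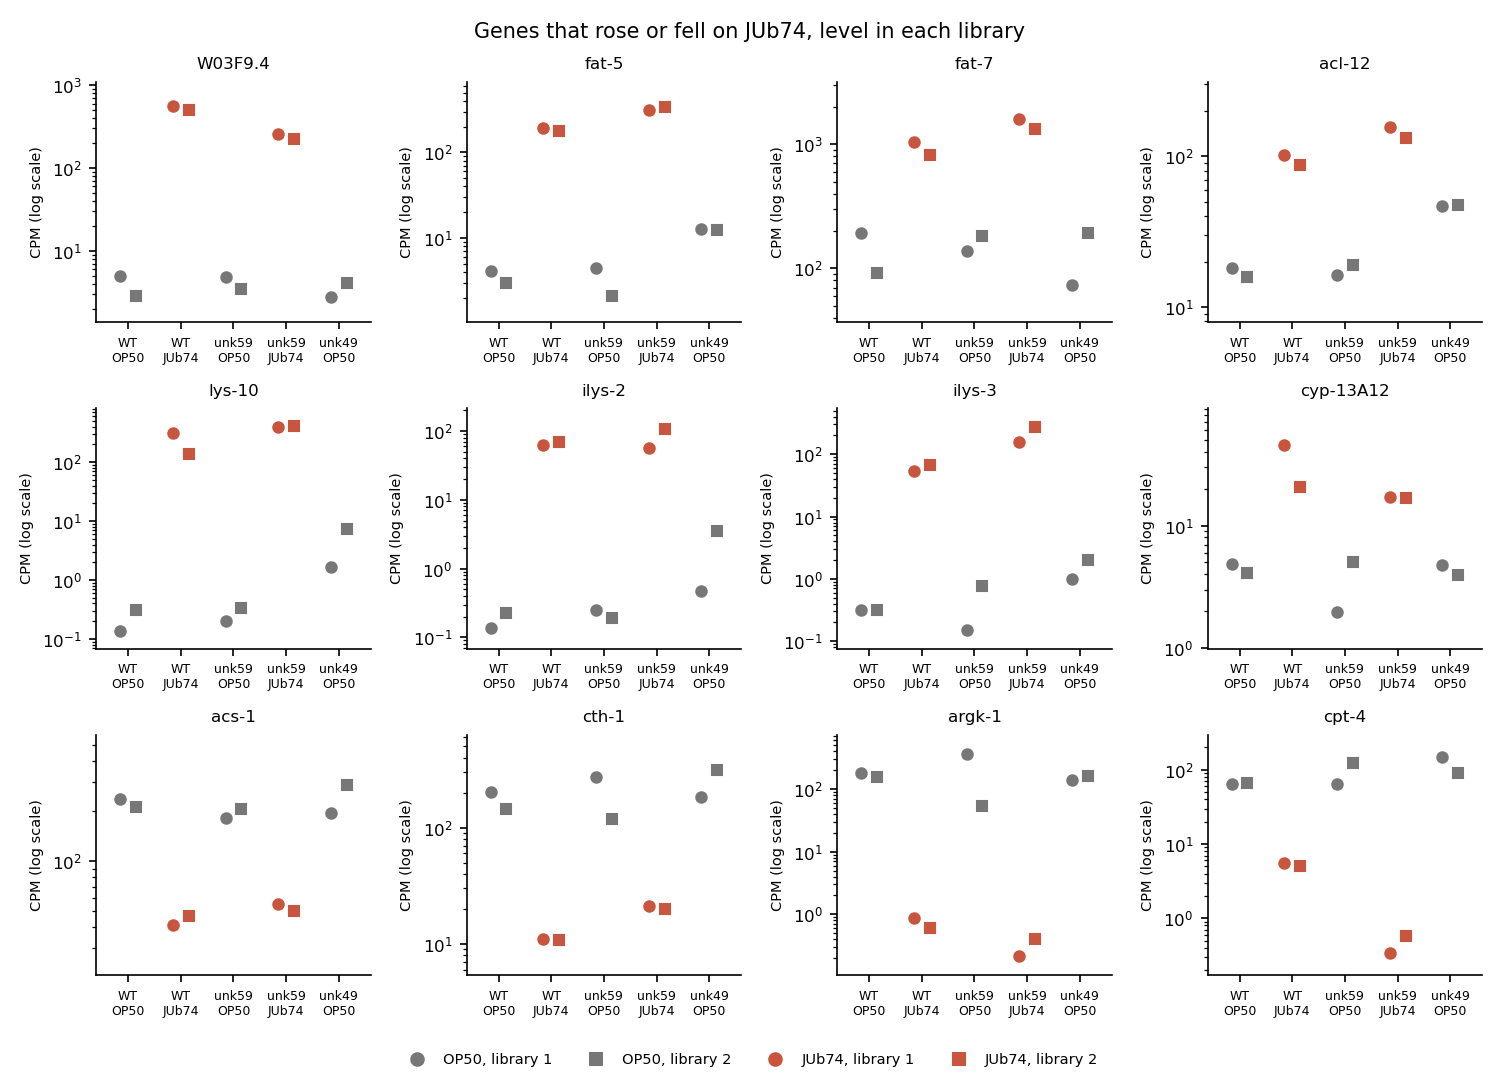
CPM (log axis) of 12 genes in each of the 10 libraries, grouped by genotype and food, with a circle for library 1 and a square for library 2 of each group. In each panel all 4 JUb74 libraries lie on one side of all 6 OP50 libraries, above them in the first 8 panels and below them for acs-1, cth-1, argk-1 and cpt-4. The genes shown were picked and are not typical of the called genes. Of the rising genes 33.18% lay above all 6 OP50 libraries in this way, against 2.69% of all genes tested. Of the falling genes 6.175% lay below them, against 1.655% of all genes tested.

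Among named genes, the largest rises were in lysozymes, enzymes that cleave the peptidoglycan of bacterial walls. lys-10, on chromosome IV from 8332826 to 8333518, had 0.138 and 0.315 CPM on OP50, or 3 and 7 reads, and 319 and 140 CPM on JUb74. The foods were separated by a wide gap. The log2 fold change of lys-10 was 9.95 (SE 0.884, adjusted p 0.00316), or 9.22 without the JUb74 library 1 and 10.64 without the OP50 library 2. In unk59 the levels were 0.203 and 0.334 CPM on OP50 and 399 and 415 CPM on JUb74.

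The invertebrate-type lysozymes ilys-2 and ilys-3 lie side by side on chromosome IV, 2234 bases apart on the same strand. ilys-3, which is known to act against Gram-positive bacteria in the worm, had 0.321 and 0.315 CPM on OP50 and 53.6 and 66.7 CPM on JUb74 (log2 fold change 7.54, SE 0.592, adjusted p 0.00134). ilys-2 had 0.138 and 0.225 CPM against 63.5 and 69.9 CPM (log2 fold change 8.48, SE 0.882, adjusted p 0.00492). Both were close to undetected on OP50 and well expressed on JUb74.

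The remaining lysozymes had smaller values. lys-2 rose from 173 and 127 CPM to 347 and 944 CPM, a log2 fold change of 2.1 that was 1.05 without library 2 of the JUb74 group. lys-4 had 234.6 and 387 CPM against 1178 and 524 CPM and was not called (1.45, adjusted p 0.0713). lys-7 and lys-8 showed -0.13 and -0.17. ilys-5, at 1152 and 1107 CPM on OP50, had 1098 and 421 CPM on JUb74 (log2 fold change -0.57, adjusted p 0.379). Of the 9 tested lys genes 2 rose, and of the 4 tested ilys genes 2 rose. Per kilobase of exon, lys-10 on JUb74 (331 CPM) stayed below lys-1 (1213 CPM) and lys-4 (1080 CPM).

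C-type lectins, secreted or membrane proteins with a carbohydrate-binding fold, went both ways, with 12 of 124 higher and 14 lower. clec-17 rose from 0.733 and 0.765 CPM to 8.70 and 38.9 CPM, and clec-70 from 0.367 and 1.08 CPM to 9.32 and 30.3 CPM. Their log2 fold changes of 4.98 and 4.76 were 3.38 and 3.52 without the JUb74 library 2, and 5.68 and 5.36 without the JUb74 library 1. That of clec-70 was 5.72 without library 2 of the OP50 group. clec-4 behaved alike, at 7.52 and 10.7 CPM against 37.5 and 192 CPM, with a log2 fold change of 3.66 that was 1.89 without the JUb74 library 2 and 4.39 without the JUb74 library 1. clec-258 fell from 17.3 and 11 CPM to 0.529 and 0.425 CPM (log2 fold change -4.88, SE 0.51, adjusted p 0.00492). clec-72 rose by 1.80 and clec-48 fell by 1.51 on the log2 scale. Of the 12 rising lectins 10 were higher in unk59 too, and of the 14 falling ones 6 were lower and 7 higher there.

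Enzymes of detoxification rose in part. Of 66 cytochromes P450 10 were higher and 4 lower, and all 10 were higher on JUb74 in unk59. The clustered genes cyp-13A6, cyp-13A7 and cyp-13A8 on chromosome II were among them. cyp-13A6 went from 0.825 and 0.945 CPM to 11.8 and 7.34 CPM (log2 fold change 3.43, SE 0.428, adjusted p 0.0103). cyp-13A7 had no reads in either OP50 library and was at least 6.91-fold higher on JUb74 against the floor of 3 reads in each library. cyp-13A12, elsewhere in the genome, went from 4.86 and 4.10 CPM to 45.7 and 20.6 CPM (log2 fold change 2.89, or 2.19 without library 1 of the JUb74 group). The 4 falling cytochromes P450 were cyp-35A3, cyp-35A4 and cyp-35A5, of one subfamily, and cyp-31A2. Log2 fold changes of the cyp-35A genes called lower were between -2.869 and -2.301, and that of cyp-31A2 was -2.502. Of these 4 genes 2 were called lower in unk59 too, while cyp-31A2 was called higher there.

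Of 62 UDP-glucuronosyltransferases 5 rose. ugt-2 went from 16.7 and 17.3 CPM to 45.7 and 48.95 CPM (log2 fold change 1.48, SE 0.198, adjusted p 0.0137). Of 42 glutathione S-transferases 3 rose, gst-44, gst-24 and gst-34, and 3 fell, gst-20, gst-13 and gst-1. DESeq2 called 2 of the family higher and 9 lower. The summed level of the family was 2046 and 1555 CPM on OP50 and 1209 and 793.8 CPM on JUb74. gst-20 and gst-24 are neighbours on the same strand of chromosome II, 618 bases apart, and moved in opposite directions, by -1.17 and 1.36 on the log2 scale.

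Other genes of gut and stress biology were called in small numbers. Of 44 intestinal proteases and saposin-like proteins 3 were higher and 2 lower. Of 23 genes of metal, heme and iron handling 2 were higher, of 51 heat shock proteins and chaperones 1, and of 18 antimicrobial peptide genes 1. In these last lists 0 were lower. Among all genes tested 2.65% were higher and 6.29% lower, so that single calls in such lists are not a result about the lists. asp-12, an aspartyl protease, rose from 26 and 40.6 CPM to 280 and 440 CPM (log2 fold change 3.43, SE 0.41, adjusted p 0.00828), and asp-14, of the same family, fell by 1.44 on the log2 scale. spp-18, a saposin-like protein, rose by 1.66. cdr-4, a cadmium-responsive gene, rose by 1.36, hrg-7, a heme-responsive protease, by 0.97, and the small heat shock protein hsp-12.3 by 2.06. The epidermal antimicrobial peptide gene nlp-29 rose from 13.3 and 16 CPM to 25 and 31.9 CPM (0.96, adjusted p 0.0464). In unk59 all of these moved in the same direction as in wild type.

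Of 195 nuclear hormone receptors 11 rose and nhr-234 alone fell, from 26.5 and 30.6 CPM to 2.16 and 0.892 CPM (log2 fold change -4.23, SE 0.477, adjusted p 0.00655, or -5.0 without library 1 of the JUb74 group). The median of the family was 0.39. The noncoding RNA tts-1 went from 6.78 and 14.1 CPM to 24.2 and 161 CPM, and its log2 fold change of 3.15 was 1.06 without the JUb74 library 2 and 3.94 without the JUb74 library 1. Without the OP50 library 2 it was 3.76. his-32, a histone gene and one of many similar copies, lies 786 bases downstream of lys-10 on the same strand, with his-31 beginning between them. his-32 rose from 1.05 and 1.80 CPM to 13 and 16.3 CPM (log2 fold change 3.35, SE 0.531, adjusted p 0.0186).

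A further rise was that of W03F9.4, a protein-coding gene on chromosome V from 147521 to 151388. It had 4.95 and 2.84 CPM on OP50 and 553 and 507 CPM on JUb74. Over all 6 OP50 libraries it was between 2.79 and 4.95 CPM and over all 4 JUb74 libraries between 223 and 553 CPM. Its log2 fold change was 7.09 (SE 0.361, adjusted p 0.000107), and 6.29 (adjusted p 0.0127) with the timing score as a covariate.

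**Figure D5:**
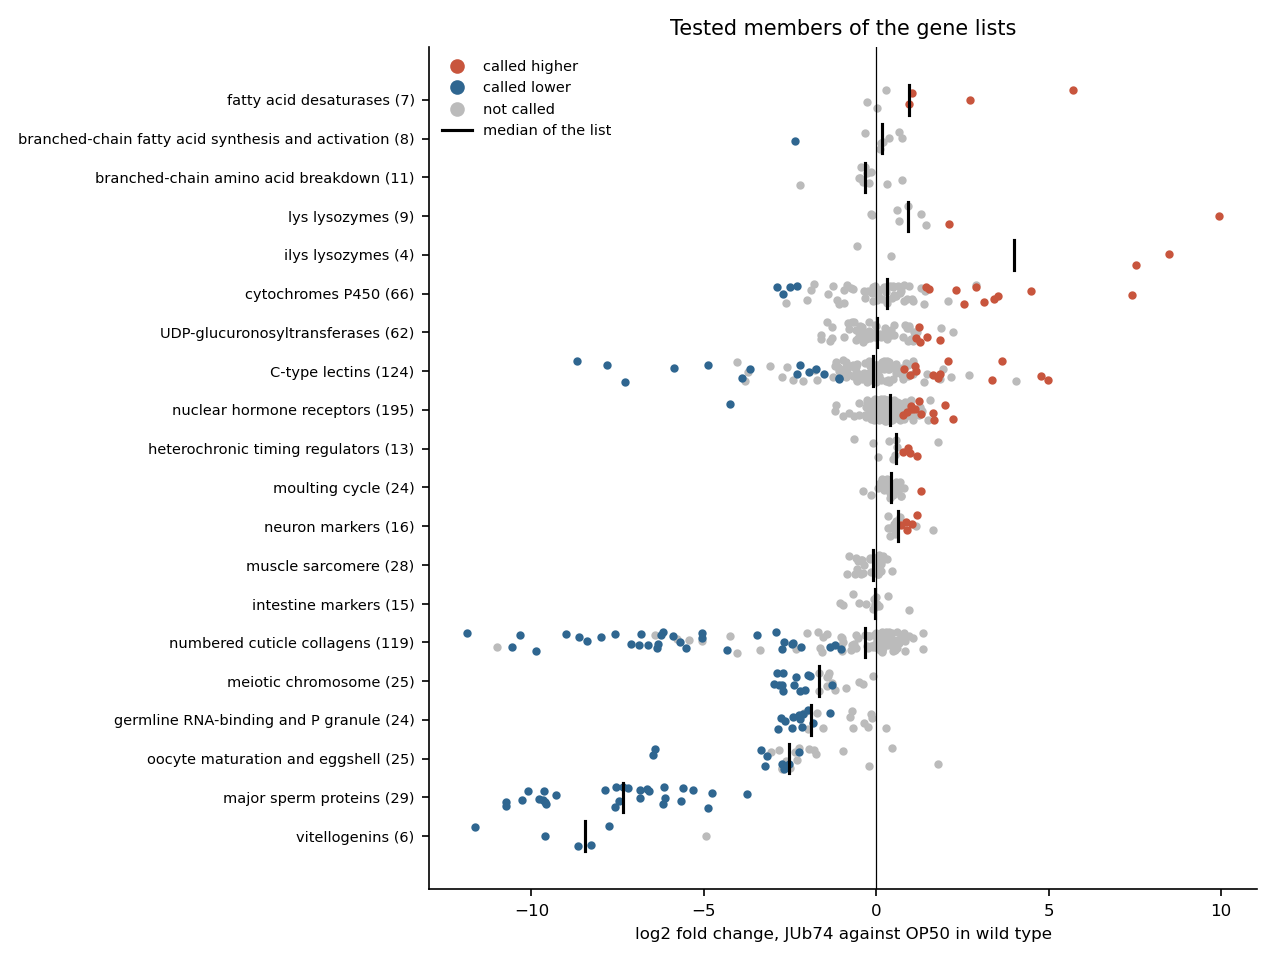
Log2 fold change of JUb74 against OP50 in wild type for the tested members of 20 gene lists, one point per gene, coloured where called, with the median of each list as a black bar and the number tested in brackets. Desaturases, lysozymes and cytochromes P450 hold points far to the right, and sperm, yolk, oocyte and collagen genes points far to the left.

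The falling genes were unevenly spread over the chromosomes. On chromosome X 44 of 2255 tested genes (1.95%) fell, and on the autosomes the share was between 5.12% on V and 9.41% on IV. The rising genes made up between 2.05% on I and 3.32% on V. Along the chromosomes, called genes often had a neighbour called in the same direction. The next tested protein-coding gene was called higher after 8.66% of the 404 rising genes and after 2.66% of all tested, and lower after 18.5% of the 957 falling genes and after 6.31% of all. Families in clusters and overlapping genes, whose reads are not separated by strand in these counts, were not set apart, and their part in these shares was not tested.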

How the data were processed

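RNA from whole worms had been sequenced as read pairs of 100 bases, per the labels' protocols. The authors deposited raw counts of read pairs per gene, 2 tables per sample, and the submitters' processing notes name STAR 2.7.10, DESeq2 without a version and the build WBcel235. The column of counts made without regard to strand was used, since the strand columns split the reads evenly (49.82% to 50.128% a library), and reads of overlapping antisense genes are then not separated. Summary rows were left out: 2.60% to 3.39% of the read pairs of the wild-type libraries were multimapping and 1.72% to 1.76% ambiguous. Of the 46778 gene IDs, 43818 were matched to names and 46603 to the annotation of Ensembl release 115. A deposited table linked to no sample (1 in all) was not used, and unk49 on JUb74 was not analysed here.

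edgeR 4.0.16 under R 4.3.3, with limma 3.58.1, fitted all 10 libraries as 5 groups, with TMM scaling, edgeR's filter on low counts and the robust quasi-likelihood test. CPM and log2 fold changes were computed from these counts. Fold bounds use a floor of 3 counts per library. Alternatives were other scalings, other filters, DESeq2 1.42.0, a strand column, a replicate block, the wild-type libraries alone, each library left out and a timing covariate. On simulated data for the wild-type contrast with 15950 genes, 70% of genes changed by 1.5 on the log2 scale and 100% of those changed by 3 were recovered, with 5.56% false calls. The simulation gave all genes the same spread and, the changed genes apart, the same mean in all groups. Genes with few reads on average were not among the changed ones. These rates hold for those settings only and do not describe the real contrast.

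The members, the 55 gene lists and the tests were chosen with earlier results of these data known. Genes named are the most changed ones called at a mean log2 CPM of at least 2, up to 3 called genes in each direction per list, members of lists with at most 25 genes, genes called under the alternatives or in both genotypes, and scav-4.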

Additional observations from a re-analysis of the deposited data

Results flagged for a closer look

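For the genes listed here the diet effect differed between the genotypes by edgeR's interaction test at an adjusted p under 0.05. All values here are log2 fold changes on JUb74 against OP50 in unk59 minus those in wild type.

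Genes of the germ line that fell in wild type and were higher on JUb74 in unk59 had differences of 6.86 for htp-1, 7.46 for htp-2, 6.83 for him-3, 7.17 for gld-1, 9.15 for mex-5 and 7.84 for spe-44. The same pattern held for rpl-11.1 (4.32), asb-1 (2.28), ucr-2.3 (5.14), asah-1 (3.89), asah-2 (4.67) and the adult collagen col-19 (12.73). It held in direction for cbs-2, cysl-4, mpst-4, cyc-2.2 and acdh-8 too, but these had 3 reads or fewer in both wild-type JUb74 libraries, so that their fitted differences (10.55, 11.13, 12.93, 13.41 and 14.04) depend on the prior count and are not sizes. gba-4, not called in unk59, differed by 3.68. For yolk, vit-6 differed by 10.74 and vit-1 by 5.37. For the other collagens of the cuticle, which were lower in both genotypes or not called in unk59, the differences were 4.23 for bli-1, 3.49 for bli-2, 9.46 for bli-6, 8.42 for col-138, 9.82 for col-63 and 7.68 for rol-1. The collagens col-19, col-63, col-138, bli-6 and rol-1 had few reads in the wild-type JUb74 libraries, so that the sizes of their differences are uncertain.

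Genes of larval timing, of the epidermis and of neurons that were higher in wild type gave negative differences: lin-14 -1.66, hbl-1 -2.12, lin-46 -2.54, daf-12 -1.73, nhr-25 -4.61, egl-3 -2.1, unc-25 -1.56 and tba-8 -11.47, the last fitted on almost no reads in unk59 on JUb74 and so not a size. lin-29 (-1.98) and lin-28 (1.01), which were not called in wild type, differed too.

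Lipid genes with a greater rise in unk59 were fat-6 (0.69), lpin-1 (0.94) and hacd-1 (1.51). cpt-4 (-4.05) fell further there. cpt-1 (-1.47), cpt-2 (-1.19), dgat-2 (-1.42), fasn-1 (-1.67), mdt-15 (-0.79), cebp-1 (-1.26) and pqm-1 (-0.77) had lower values in unk59 than in wild type.

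Among genes of defence and detoxification, W03F9.4 (-1.23), asp-12 (-1.52) and cyp-13A6 (-2.11) rose less in unk59. clec-72 (-1.84), gst-24 (-1.46), gst-44 (-2.80) and the histone gene his-32 (-2.52) rose in wild type and were not called in unk59. cdr-4 (2.24) rose further in unk59, while lys-7 (4.14) and lys-8 (0.90) were called higher in unk59 and not called in wild type. asp-14 (-2.31) and gst-20 (-1.26) fell further. spp-18 (2.61) rose further.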

How the results depend on the processing

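The 1426 calls of the wild-type contrast numbered 2165 with DESeq2, 912 with a strand column, 579 with the replicate block, 429 with at least 10 reads in every library, and 1 with the timing covariate. Leaving out 1 library gave between 13 and 472. The replicate block is a pairing by library number only: with 2 pairs, the deviations of same-numbered libraries correlated at 0.2601 over genes, and nothing in the labels says that the number marks a shared batch. Higher genes made up 29.59% of the calls as reported, 46.85% with at least 10 reads in every library and 55.08% when library 1 of the JUb74 group was left out. The filter of 10 reads also lowered the calls of the unk59 contrast from 9545 to 6194 and of the difference between genotypes from 6908 to 4365, while it tested fewer genes. The other counts were within 1.5 times the reported ones. The called genes among the 168 with tabulated values all kept their direction in every alternative that gave a value, the leave-one-out fits included. Where a call was lost, the cause was not tested. With 2 libraries per group, single genes of moderate change can be missed, and genes near 0 reads on JUb74 have no defined fold.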
